A study of Homo sapiens with 3 samples.

Results

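GJA1 and PTPRK lie at the ends of a 7.09 Mb stretch of 6q22, and 10 protein-coding genes were followed along it. In chromosome order they were GJA1, HSF2, SERINC1, TPD52L1, HDDC2, NCOA7, TRMT11, RNF146, ECHDC1 and PTPRK, 10 of the 14949 genes in the table and 10 of 756 on chromosome 6. They were chosen with their values in sh-METTL3 and sh-CTL known, since GJA1 and PTPRK had been seen to differ sharply between these 2 libraries and the others are their neighbours. The values of that comparison are therefore given as a description, with no test. The question was whether such differences were local to single genes or ran along the chromosome.

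The RNA came from MIAPaCa-2 cells, a human line established from pancreatic cancer and labelled as epithelial. There were 3 groups of 1 library each: untreated cells with a control short hairpin (sh-CTL), untreated cells with a hairpin against METTL3 (sh-METTL3), and sh-CTL cells given 80 nM NMS-P937, which inhibits PLK1, over 24 h (sh-CTL + PLK1i). Sets of 3 values follow this order of the libraries throughout. METTL3 is the catalytic subunit of the complex that writes N6-methyladenosine (m6A) on RNA, and PLK1 is a mitotic kinase. The METTL3-knockdown cells were received as a gift, and the sources used here do not give whether they were 1 clone or a pool, so an effect of the hairpin and a difference between the cell populations cannot be told apart. No replicate exists, so no difference below has a replicate check and none has a p-value.

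Reads in listed genes came to between 37449259 and 47727541 per library. The targeted gene was examined first. METTL3 had 1781 reads in sh-METTL3, against 3378 and 4223 in the untreated and treated sh-CTL cells. After scaling, 41.9% of the sh-CTL level was left in sh-METTL3. Of the epithelial markers, KRT8, KRT18, KRT19, CLDN4 and ESRP1 were listed (5 of 9), while KRT7, EPCAM, CDH1 and CLDN7 had no row. Their summed levels were 3487, 4206 and 3245 CPM (counts scaled to library size). The mesenchymal markers (3 of 6 listed, mostly VIM) summed to 5679, 4337 and 5706 CPM. The markers of each list did not move together in sh-METTL3. Of the epithelial ones KRT8, KRT18 and KRT19 had normalized counts above sh-CTL, with KRT8 and KRT18 carrying the sum, while CLDN4 (729, 571 and 1003) and the splicing factor ESRP1 (26, 3 and 15 reads) were below. Of the mesenchymal ones VIM and the transcription factor SNAI2 (289, 20 and 493 reads) were below sh-CTL, and the transcription factor ZEB1 (2510, 3752 and 4169 reads) was above, with normalized counts of 2927, 3478 and 3838. No acinar or islet marker was listed (0 of 6). Fibroblast markers (2 of 4 listed, COL1A1 and COL1A2) summed to 1179, 942 and 933 CPM. COL1A2 carried this sum, and COL1A1 had 34, 6 and 36 reads, with a log2 change of -2.63 in sh-METTL3. Of the blood and endothelial markers only CD68 was listed (1 of 4), at 40.2, 74.5 and 60.2 CPM. The part of these markers in the results below was not tested.

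Neighbouring genes can share a chromatin domain, in which case a change in the domain may move several genes together, whereas a change at 1 promoter or in 1 transcript may move that gene alone. The members have different roles in the cell. GJA1 encodes a connexin, a channel protein of gap junctions through which small molecules pass between cells. PTPRK encodes a receptor-type tyrosine phosphatase that sits at cell contacts and removes phosphate from junction proteins and growth factor receptors. TPD52L1 encodes a small coiled-coil protein of the tumor protein D52 family. The other members encode a heat shock transcription factor, a multipass membrane protein, metabolic and tRNA-modifying enzymes, a nuclear receptor coactivator and a ubiquitin ligase.

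The promoters of the 3 genes that stood apart in sh-METTL3 are shown because they differ widely in CpG content, the feature that separates the main promoter classes. Each is given 5′ to 3′ on the gene's own strand, from 250 bases before to 50 bases after the RefSeq start, with every CpG in capitals. The sequences come from a RefSeq table of another build and were each found exactly once on GRCh37 chromosome 6.
GJA1: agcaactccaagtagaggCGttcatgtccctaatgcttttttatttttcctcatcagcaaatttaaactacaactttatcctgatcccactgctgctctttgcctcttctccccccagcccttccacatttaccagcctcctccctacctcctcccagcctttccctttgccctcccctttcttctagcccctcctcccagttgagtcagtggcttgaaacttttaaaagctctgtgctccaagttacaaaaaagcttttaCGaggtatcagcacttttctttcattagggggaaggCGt
TPD52L1: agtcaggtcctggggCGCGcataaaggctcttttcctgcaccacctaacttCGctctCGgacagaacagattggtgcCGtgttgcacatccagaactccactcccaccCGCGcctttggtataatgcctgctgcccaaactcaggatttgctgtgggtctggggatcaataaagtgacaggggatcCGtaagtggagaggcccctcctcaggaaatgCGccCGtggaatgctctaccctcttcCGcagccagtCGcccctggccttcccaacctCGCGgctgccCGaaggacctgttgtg
PTPRK: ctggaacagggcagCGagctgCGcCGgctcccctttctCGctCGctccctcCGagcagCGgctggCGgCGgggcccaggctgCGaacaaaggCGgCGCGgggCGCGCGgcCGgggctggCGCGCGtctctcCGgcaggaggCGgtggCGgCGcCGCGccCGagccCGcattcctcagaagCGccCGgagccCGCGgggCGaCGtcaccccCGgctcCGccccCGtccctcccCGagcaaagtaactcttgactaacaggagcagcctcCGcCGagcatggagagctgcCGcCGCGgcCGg

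The GJA1 promoter (chr6:121756542-121756841, + strand) held 3 CpG dinucleotides in 300 bases, and 93.4% of the 15031 promoters of listed genes held more. The TPD52L1 promoter (chr6:125475142-125475441, + strand) held 15, and 75.0% held more. This start lies inside the annotated span of TPD52L1, downstream of its first base. Those of GJA1 and PTPRK also lie inside the spans of their genes, but close to the first base. The PTPRK promoter (chr6:128841695-128841994, - strand) held 44, and 5.87% held more. Over all these promoters the median was 25.0 CpG, with quartiles of 16.0 and 34.0. The gene that was high in sh-METTL3 thus had a CpG-poor promoter, and the genes that were low had promoters on either side of the median.

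**Figure D1:**
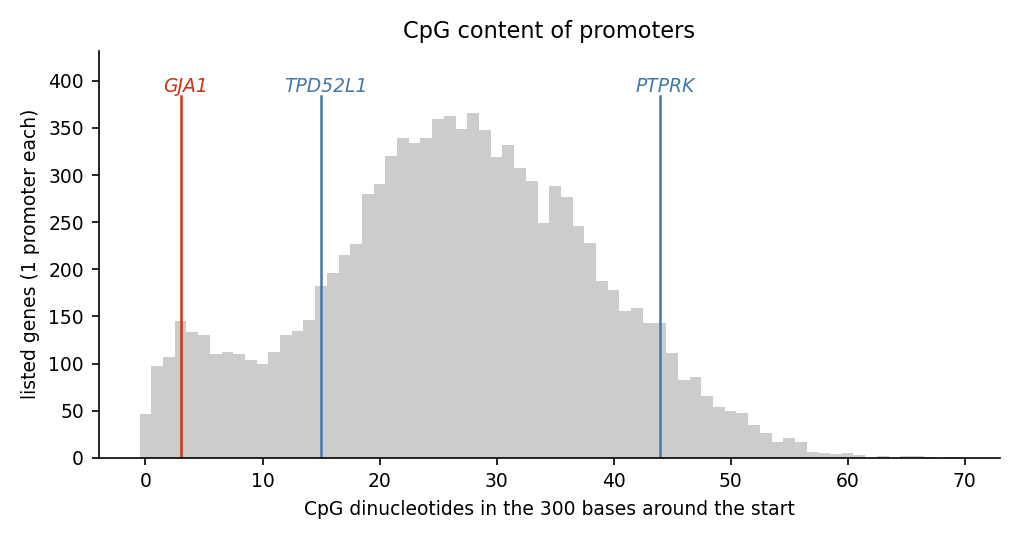
CpG dinucleotides in the 300 bases around the start (x axis) against the number of listed genes, with 1 promoter for each gene (y axis). The vertical lines mark GJA1 at 3, TPD52L1 at 15 and PTPRK at 44, against a median of 27.0 for the first promoter of each gene.

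Both strands were searched for the TATA box letters TATAAA, the CCAAT box, the GC box letters GGGCGG and the motif TGANTCA. GJA1 held 1 TGANTCA, the letters of an AP-1 site, 48 bases before its RefSeq start in the stretch tgagtca, and 5.10% of promoters hold this motif. That start lies downstream of the first annotated base of GJA1, so the match falls just inside the annotated span of the gene. TPD52L1 held 1 CCAAT, found in 34.8% of promoters, and PTPRK held 1 GGGCGG, found in 66.6%. None of the 3 held TATAAA, which 5.99% hold. With a single match in each promoter, no motifs overlapped. These matches describe letters only. Promoters of the genes that were at least 8-fold higher in sh-METTL3 had a median of 12.0 CpG (20 genes with a promoter), and those at least 8-fold lower 12.5 (34 genes), beside 27.0 for the first promoter of each listed gene, so these medians were low on both sides.

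GJA1 (ENSG00000152661, GRCh37 chr6:121756741-121770873, + strand) had 1470 reads in sh-METTL3 but 4 in sh-CTL and 5 in sh-CTL + PLK1i. Divided by the library's size factor, these reads gave normalized counts of 4.66, 1363 and 4.60. The gene was close to silent in both libraries of the sh-CTL cells and well expressed in sh-METTL3. The ratio of normalized reads between sh-METTL3 and sh-CTL was 292-fold, with a 95% interval of 114 to 1074. Intervals here were computed by the exact Clopper-Pearson method from both read counts and cover counting error only. They compare 2 libraries and not 2 conditions. Against sh-CTL + PLK1i the ratio was 296-fold (127 to 913). GJA1 was in the table only through sh-METTL3, because every listed gene reached at least 0.503 CPM in its highest library and GJA1 was below that level in the other 2. A processed pseudogene of GJA1 is annotated on chromosome 5 and has no row in the table, so how reads shared with it were assigned is not known. In bulk RNA, more cells with the transcript and more transcript per cell cannot be told apart, and this holds for each difference below.

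TPD52L1 (ENSG00000111907, chr6:125440195-125585553, + strand) kept 6 reads in sh-METTL3, beside 431 in sh-CTL and 543 in sh-CTL + PLK1i. Its normalized counts were 503, 5.56 and 500. The libraries of the sh-CTL cells were alike and sh-METTL3 alone was low, at 1.11% of sh-CTL. The ratio was 90.4-fold lower in sh-METTL3 than in sh-CTL, with an interval of 41.2 to 248, and 89.9-fold lower than in sh-CTL + PLK1i (41.0 to 246).

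PTPRK (ENSG00000152894, chr6:128289930-128841761, - strand), which spans 552 kb, kept 2 reads in sh-METTL3, beside 173 in sh-CTL and 209 in sh-CTL + PLK1i. This gave normalized counts of 202, 1.85 and 192. The 2 reads in sh-METTL3 were under the floor of 3 reads used here for a gene at background. The ratio to sh-CTL was 109-fold lower with an interval of 29.7 to 906, and that to sh-CTL + PLK1i was 104-fold lower (28.4 to 863). An antisense gene, PTPRK-AS1, is annotated inside PTPRK and has no row.

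HSF2, SERINC1, HDDC2, NCOA7, TRMT11, RNF146 and ECHDC1 behaved otherwise. Their normalized counts ranged from 948 to 4971 in sh-CTL, from 985 to 5185 in sh-METTL3 and from 734 to 5534 under PLK1i. All 7 were thus well expressed in every library. Changes are given on the log2(normalized count + 1) scale, which understates those of genes with few reads, and a gene was called at a change of at least 1 in size. HSF2 (ENSG00000025156, chr6:122720696-122754264), a heat shock transcription factor also active in development, had 946, 1258 and 1300 reads. Its log2 change in sh-METTL3 was 0.08, with an interval of -0.04 to 0.20 for the read ratio.

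SERINC1 (ENSG00000111897, chr6:122764496-122792952), a membrane protein of the serine incorporator family, had 4263, 5594 and 6011 reads. Its normalized counts were 4971, 5185 and 5534, the highest of all members in each library. The change in sh-METTL3 was 0.06 (0.00 to 0.12). HDDC2 (ENSG00000111906, chr6:125541108-125623224), an HD domain nucleotidase, had 1496, 2042 and 1789 reads and a change of 0.12 (0.02 to 0.21).

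NCOA7 (ENSG00000111912, chr6:126102307-126253180), a nuclear receptor coactivator with a TLDc domain, had 916, 1148 and 1138 reads. Its change of -0.01 (-0.13 to 0.12) was the smallest in size among the members, and 98.4% of all listed genes had a larger one. TRMT11 (ENSG00000066651, chr6:126307625-126524963), a tRNA guanosine methyltransferase, had 813, 1080 and 961 reads and a change of 0.08 (-0.05 to 0.21).

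RNF146 (ENSG00000118518, chr6:127587871-127609712), a ubiquitin ligase that recognises poly-ADP-ribose on its substrates, had 814, 1063 and 797 reads. Its normalized counts were 949, 985 and 734, the lowest being that of sh-CTL + PLK1i, and its change in sh-METTL3 was 0.05 (-0.08 to 0.19). ECHDC1 (ENSG00000093144, chr6:127609857-127664754), an ethylmalonyl-CoA decarboxylase that repairs a metabolic side product, had 2337, 2748 and 3027 reads and a change of -0.10 (-0.18 to -0.02). RNF146 and ECHDC1 run toward each other and end 144 bases apart.

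**Figure D2:**
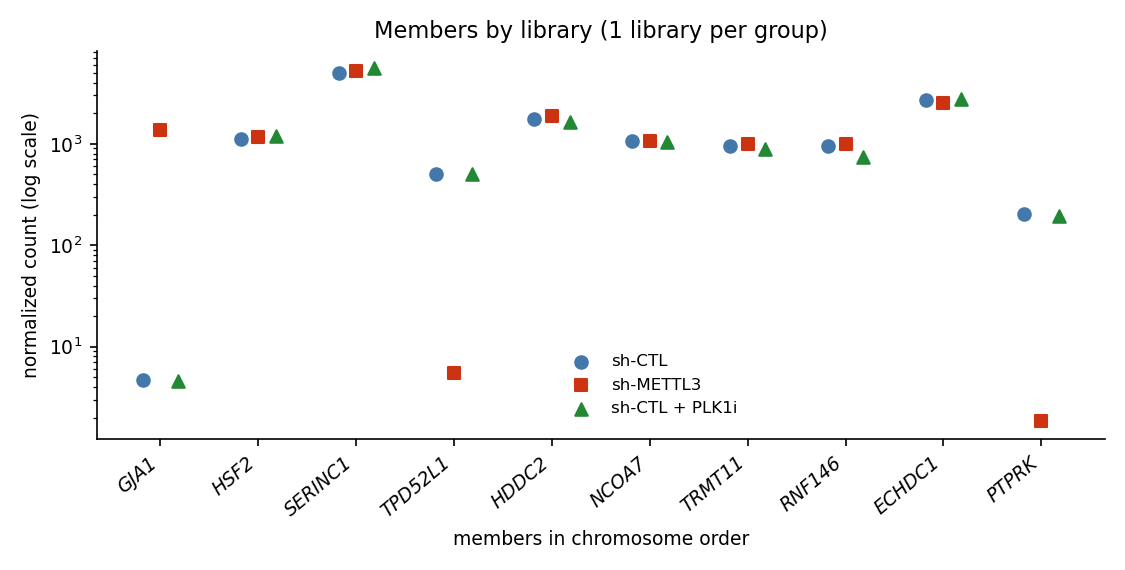
Normalized count of each member (y axis, log scale) in chromosome order (x axis), with a circle for sh-CTL, a square for sh-METTL3 and a triangle for sh-CTL + PLK1i, 1 library each. The square stands far above the other symbols for GJA1 and far below them for TPD52L1 and PTPRK, and the 3 symbols lie close together for the other 7 genes.

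In sh-METTL3 against sh-CTL, 1 of the 10 members was called higher, beside 512 of all 14949 genes (3.42%), and 2 were called lower, beside 440 genes (2.94%). Because the members were chosen on this comparison, nothing is read from these shares. Genes were counted as switched where sh-METTL3 differed by a log2 change of at least 3, that is 8-fold, in the same direction from both libraries of the sh-CTL cells. GJA1 was among 31 genes switched on (0.207%), and TPD52L1 and PTPRK were among 58 switched off (0.388%). GJA1 had a log2 change of 7.91, the second highest of all genes. TPD52L1, with a change of -6.26, and PTPRK, with -6.15, ranked 8 and 9 from the lowest. There was a wide gap at the threshold, the called member nearest to it being PTPRK at -6.15 and the nearest one not called HDDC2 at 0.12. Among the 7 others the interval of the read ratio left out 0 for HDDC2, SERINC1 and ECHDC1 (3 of 7), all by small amounts. The share of all genes with such an interval was not computed, so nothing is read from this count.

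**Figure D3:**
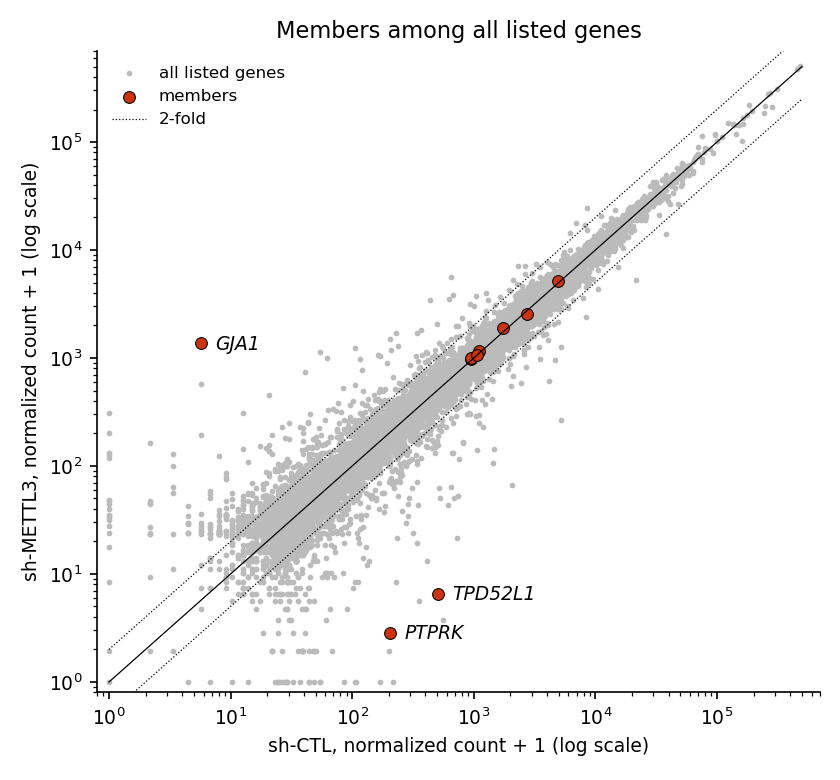
Normalized count + 1 of every listed gene in sh-CTL (x axis, log scale) and in sh-METTL3 (y axis, log scale), with members in red, a solid line at equal values and dotted lines at 2-fold. GJA1 lies far above the solid line, TPD52L1 and PTPRK lie far below it, and the other 7 members lie close to the solid line.

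The same genes were compared between sh-CTL + PLK1i and sh-CTL, which shares the sh-CTL library with the comparison above. None of the 10 members was called, beside 208 genes called higher (1.39%) and 169 called lower (1.13%) of all listed genes. Their changes ran from -0.37 to 0.15 with a median of -0.02, beside 0.002 for all genes. GJA1 had a change of -0.02, but its interval of -2.24 to 2.31 was wide, and with 4 and 5 reads a difference of that size was not detectable. TPD52L1 had -0.01 (-0.19 to 0.18) and PTPRK -0.07 (-0.37 to 0.23). RNF146 had the largest change, -0.37 (-0.51 to -0.23), and SERINC1 had 0.15 (0.10 to 0.21). These were the only members whose interval left out 0, and the share of all genes with such an interval was not computed. HSF2 had 0.12 (-0.00 to 0.24), HDDC2 -0.08 (-0.18 to 0.02), NCOA7 -0.03 (-0.15 to 0.10), TRMT11 -0.10 (-0.24 to 0.04) and ECHDC1 0.03 (-0.05 to 0.11).

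Levels were compared between genes per length, as RPKM (reads scaled to the length of the gene's exons and to library size), with exact Poisson 95% intervals. In sh-CTL the order was SERINC1 at 36.4, ECHDC1 (10.6 to 11.4), HSF2 at 9.37, HDDC2 at 6.78, RNF146 at 6.41, TRMT11 at 3.79, NCOA7 at 3.20, TPD52L1 at 1.52, PTPRK at 0.517 and GJA1 at 0.0315. By this measure the genes that were low in sh-METTL3 were already the lowest of the expressed members in sh-CTL. Their normalized counts there, 503 and 202, were also below those of the other 7, which began at 948. The order per length depends on the length chosen. All annotated exons came to 7595 bases for TPD52L1 and 7647 for NCOA7, whereas their canonical transcripts had 2239 and 6264. Only HDDC2 (6.45 to 7.14) and RNF146 (5.98 to 6.86) were neighbours in this order with overlapping intervals. In sh-METTL3 GJA1 stood in the fourth place instead of the last, with 9.22 (8.76 to 9.71), next to HSF2 with 9.94 (9.39 to 10.5) and ECHDC1 with 10.3 (9.93 to 10.7). The intervals of GJA1 and HSF2 overlapped, as did those of HSF2 and ECHDC1. TPD52L1 was then at 0.0168 (0.00618 to 0.0366) and PTPRK at 0.00477 (0.000577 to 0.0172), and these intervals overlapped too. In sh-CTL + PLK1i the order was that of sh-CTL. All these orders use the length of all annotated exons. By canonical length TPD52L1 would stand above NCOA7 in sh-CTL. The place of GJA1 in sh-METTL3 depends on the length too. By canonical length (3083 bases for GJA1) HDDC2 at 1446, TRMT11 at 1843 and RNF146 at 2119 would stand above it there.

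The stretch held 17 listed genes, the 10 members and 7 others. The annotation places 82 genes there, 26 of them protein-coding, of which 14 were listed and 12 are not analysed here. Over the 15 genes between the ends the median log2 change in sh-METTL3 was -0.006, beside 0.020 for chromosome 6 and 0.001 for all genes. Of the 15, 0 were called higher and 2 lower, beside 3.42% and 2.94% of all genes. The 2 include TPD52L1, a member chosen on this comparison, so nothing is read from these counts. Without the called genes the median of the remaining 13 was 0.008. In sh-CTL + PLK1i the median of the 15 was 0.032, beside 0.002 for all genes. None of the 15 was called, beside 1.39% called higher and 1.13% called lower of all genes, and nothing is read from this.

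The called gene between the ends that was no member was RNF217, a ubiquitin ligase gene that lies 26.4 kb from TPD52L1 on the same strand (ENSG00000146373, chr6:125283583-125413779). Its reads numbered 32, 10 and 54. sh-METTL3 was thus the lowest library here too, at normalized counts of 37.3, 9.27 and 49.7. Its change was -1.90, and the read ratio was 4.03-fold lower with an interval of 1.93 to 9.18. The call is lost at a log2 threshold of 2 and where a mean normalized count of at least 50 is required, and TPD52L1 then has no called neighbour. The difference is smaller than that of TPD52L1, whose own interval began at 41.2-fold lower. On the other side of TPD52L1, HDDC2 was not called. HDDC2 overlaps TPD52L1 over 44446 bases on the opposite strand, with 191 exon bases shared, of 7595 in TPD52L1 and 5888 in HDDC2. The library kit keeps the strand per the labels, but whether the counting used it is not given in the sources used here, so reads from the shared bases could be assigned to either gene. HDDC2 had 2042 reads in sh-METTL3, where TPD52L1 had 6.

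GJA1 stood alone at its end. The nearest listed gene before it, TBC1D32, a gene of cilia 101 kb away, had 270, 343 and 349 reads and a change of 0.01 in sh-METTL3. The next listed gene after it, HSF2, lies 950 kb away. Further out, FAM184A had 10, 34 and 19 reads and was called, with a change of 1.36, whereas CEP85L, MCM9 and ASF1A had changes of 0.04, -0.20 and -0.03.

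PTPRK also had no called gene beside it. After it in chromosome order LAMA2, a laminin gene 363 kb away, had 418, 395 and 636 reads and a change of -0.41 (-0.61 to -0.21). Further on ENSG00000226149, ARHGAP18, L3MBTL3 and EPB41L2 had changes of -0.26, 0.01, 0.40 and -0.54. Within the stretch the nearest listed gene was the processed pseudogene YWHAZP4, 612 kb away, with 12, 11 and 25 reads and a change of -0.42. The pseudogenes YWHAZP4 and PRELID1P1 (20, 29 and 31 reads) can share reads with their parent genes and their values are uncertain. The other genes between the ends were HINT3 with a change of -0.02, the centromere gene CENPW with -0.14, SMPDL3A with -0.26, PRELID1P1 with 0.20 and ENSG00000279453 with 0.01.

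**Figure D4:**
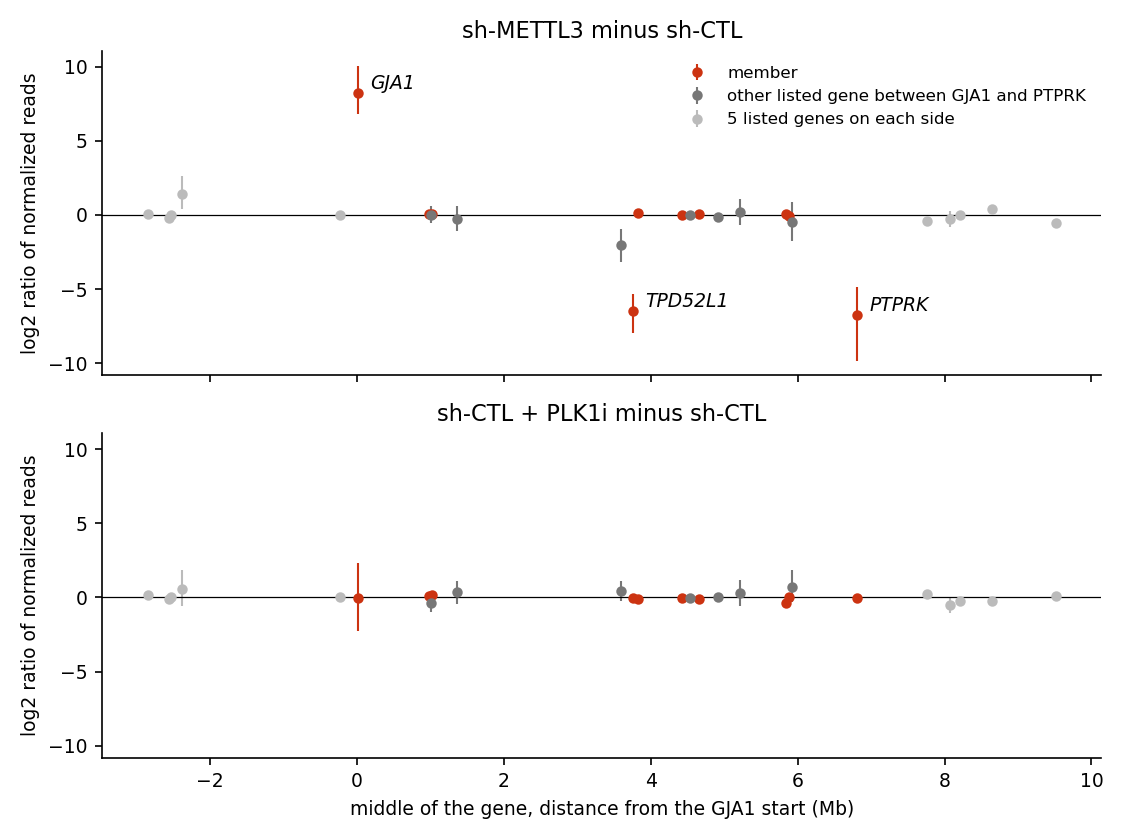
Log2 ratio of normalized reads (y axis) for the members, the other listed genes between GJA1 and PTPRK and 5 listed genes on each side, by the distance of the gene's middle from the GJA1 start in Mb (x axis), for sh-METTL3 (upper panel) and sh-CTL + PLK1i (lower panel) minus sh-CTL. Bars are 95% counting intervals, and in the upper panel GJA1 stands at 8.19, TPD52L1 at -6.50 and PTPRK at -6.77 while genes between them lie near 0 apart from RNF217 at -2.01.

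The same question was asked of the whole table. Of 14858 listed genes with a position, 11.9% had a called gene immediately before or after them in sh-METTL3. Of the 932 called genes, 240 (25.8%) did, and 210 (22.5%) had one called in the same direction as their own change, beside 7.59% of all genes. Of 88 switched genes with a position, 32 (36.4%) had a called neighbour and 10 (11.4%) a switched one, beside 1.15% of all genes with a switched neighbour. TPD52L1, with RNF217 beside it, was among these 32 switched genes, and GJA1 and PTPRK were not. Genes with few reads are part of these shares, and where the mean normalized count had to reach 50 the share was 21.6% of called genes beside 7.02% of all genes. Overlapping genes are also part of them, and their part was not tested. Chromosome 6 held 13 switched genes among its 756 listed genes, beside 89 among all 14949. In sh-METTL3 it held 50 genes called higher and 29 called lower, beside 512 and 440 of all genes. Each of these shares was above that of all genes, and GJA1, TPD52L1 and PTPRK are part of them. The switched genes of chromosome 6 included the neighbours MAP7 (3.04) and MAP3K5 (4.02), both higher. The nearest switched gene outside the stretch was CCN2 (-4.97), a secreted matrix-associated protein gene on the far side of PTPRK.

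Genes with the pattern nearest to GJA1 and PTPRK were found by the Euclidean distance over both log2 changes, from 3 libraries. Near GJA1 were TENM2 on chromosome 5, a teneurin adhesion protein (0, 140 and 0 reads, distance 0.881), and ENSG00000285283 on chromosome 11 (0, 127 and 0, distance 1.02). Like GJA1, both were in the table only through sh-METTL3. With 0 reads in both libraries of the sh-CTL cells, their change in sh-CTL + PLK1i was 0.00 by construction. Their distance thus rests on the sh-METTL3 change, the comparison on which GJA1 was chosen. Nearest to PTPRK was TPD52L1 at a distance of 0.127, followed by MMP16 on chromosome 8, a membrane-bound matrix protease (72, 0 and 81 reads, 0.277), and LINC02263 on chromosome 4 (46, 0 and 58, 0.384). PTPRK and TPD52L1 were chosen with the sh-METTL3 values known, so nothing is read from their closeness. With 0 reads in sh-METTL3, the changes of MMP16 and LINC02263 there were set by their sh-CTL counts and the pseudocount. Except for TPD52L1, the genes named here as near GJA1 or PTPRK lie on other chromosomes.

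The relatives of each member were examined from lists given by function. Of 23 connexin and pannexin genes considered, 8 were listed, and 3 were called higher in sh-METTL3 and 0 lower, beside 3.42% and 2.94% of all genes, with a median change of 0.11 beside 0.001 for all genes. These include GJA1, which was chosen on this comparison. Those called were GJA1 and the beta connexins GJB2 and GJB5. GJB2 had 257, 930 and 357 reads (change 1.52). GJB5 had 82, 398 and 116 reads (change 1.94). Both were expressed in sh-CTL, unlike GJA1. The others, among them GJC1, the most abundant connexin gene by normalized count, had changes from -0.22 to 0.13. Of 16 genes whose products meet GJA1 at the membrane, 13 were listed and 0 were called in either comparison. Of all genes 3.42% were called higher and 2.94% lower in sh-METTL3, and 1.39% and 1.13% in sh-CTL + PLK1i. At these shares nothing is read from 0 calls among 13 genes. The changes of the 13 in sh-METTL3 ran from -0.92 for the junction adhesion gene F11R (142, 94 and 168 reads) to 0.25 for CLDN1.

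Of 20 receptor-type tyrosine phosphatase genes, 11 were listed, with 0 called higher and 3 lower, beside 3.42% and 2.94% of all genes, and a median of -0.25 beside 0.001. The 3 include PTPRK, which was chosen on this comparison. Beside PTPRK these were PTPRE (66, 34 and 75 reads, change -1.26) and PTPRZ1 (69, 27 and 76 reads, change -1.65). Both kept more reads in sh-METTL3 than the 2 of PTPRK. PTPRU, a close relative of PTPRK, had 276, 187 and 355 reads and a change of -0.89, and PTPRF, the most abundant by normalized count, had -0.30. None of the 11 was called in sh-CTL + PLK1i, beside 1.39% called higher and 1.13% called lower of all genes. Of 8 junction and receptor proteins that PTPRK acts on or binds, 7 were listed and none was called, with changes from -0.34 for EGFR to 0.24 for CTNNB1. With 3.42% and 2.94% of all genes called, nothing is read from the lack of calls among 7 genes.

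**Figure D5:**
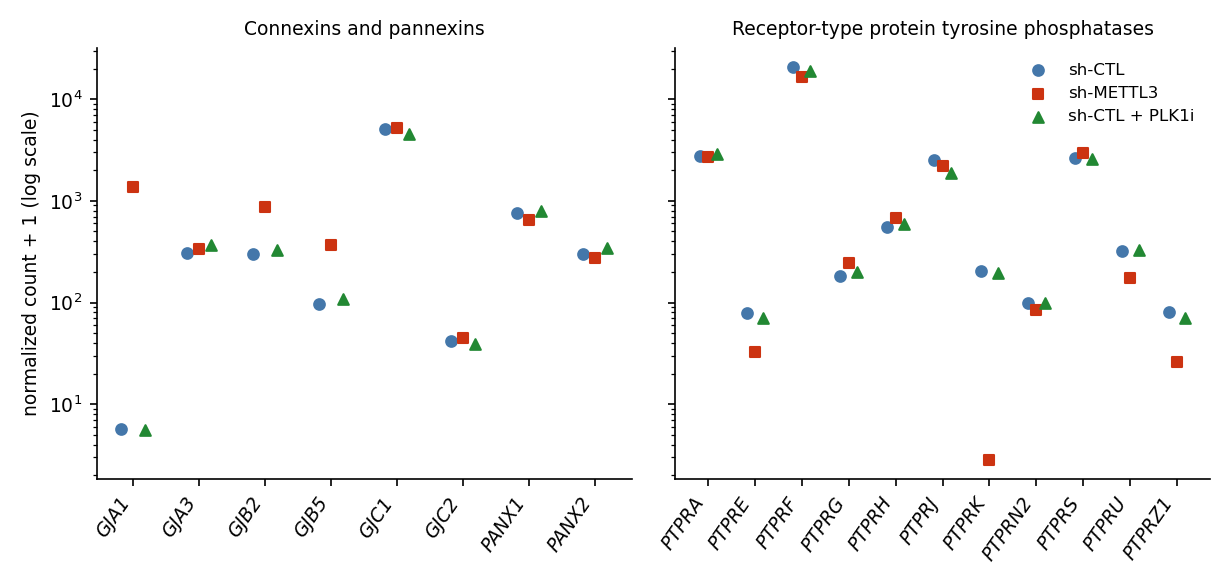
Normalized count + 1 (y axis, log scale) of 8 connexin and pannexin genes (left) and 11 receptor-type tyrosine phosphatase genes (right) in the 3 libraries. In sh-METTL3 (squares) GJA1 reaches the level of the expressed connexins with GJB2 and GJB5 also higher, and PTPRK has the lowest level while PTPRE and PTPRZ1 are lower by less.

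In the tumor protein D52 family 3 of 4 genes were listed. Only TPD52L1 was called, and TPD52 (1876, 2226 and 2347 reads) and TPD52L2 (8005, 8969 and 11345 reads) had changes of -0.08 and -0.17. The lists around the members that were not called held few called genes. Of all genes 3.42% were called higher and 2.94% lower in sh-METTL3, so nothing is read from few calls in these short lists. None was called among the SERINC genes (4 of 5 listed, changes of the others from -0.35 to 0.18), the heat shock factors and chaperones (14 of 15, -0.26 to 0.26), the TLDc domain genes (4 of 5, -0.16 to 0.17), TRMT112 and its methyltransferase partners (8 of 8, -0.30 to 0.08), the acyl-CoA genes around ECHDC1 (10 of 11, -0.52 to 0.31) and the HD domain genes (3 of 3, -0.17 to 0.12). The exception was AXIN2, an axin gene whose protein RNF146 marks for degradation, with 44, 180 and 55 reads and a change of 1.68. It was the 1 gene called in a list of 7 with RNF146, TNKS, TNKS2, PARP1, AXIN1 and CTNNB1. In sh-CTL + PLK1i no gene of these 7 lists was called, beside 1.39% called higher and 1.13% called lower of all genes.

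The RNA of each member was also searched for GGACT, a common form of the sequence at which METTL3 places m6A. The search used the sense sequence of each canonical transcript. GJA1 held 3 copies (0.973 per kilobase), PTPRK 5 (0.833) and TPD52L1 0. Of the members that were not called, HSF2 held 4 (1.54 per kilobase), NCOA7 8 (1.28), HDDC2 0, and SERINC1, TRMT11, RNF146 and ECHDC1 1 each. Over 14789 listed genes the median was 0.922 per kilobase with quartiles of 0.524 and 1.41, and 87.5% held at least 1. The called members ranged from 0 copies to just above the median, and the others ranged from 0 to above the upper quartile. The letters do not show whether a site was methylated, and m6A was not measured in these libraries.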

How the data were processed

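Polyadenylated RNA from 3 MIAPaCa-2 libraries was sequenced, 1 per group, and groups were taken from the sample titles. The authors deposited their log2 values in 1 table of 14949 genes. The submitters' processing notes name FastQC 0.11.9, STAR 2.7.10, RSEM 1.3.3 and hg19, with no role or order. The annotation and the normalization are not given in the sources used here. RSEM gives estimated counts, whereas the deposited log2 values followed log2(read count / size factor + 4), with an exact minimum of 2. Whole reads were therefore recovered by undoing the log2, subtracting 4 and dividing by the value of 1 read, which was 1.17, 0.927 and 0.921 (size factors 0.858, 1.08 and 1.09) in the order sh-CTL, sh-METTL3 and sh-CTL + PLK1i. Below 2000 reads, 100% of the values above 0 came out whole within 0.1 (10708, 9950 and 9848 genes). Larger values were rounded. The recovered depth was 37449259, 46944920 and 47727541 reads in listed genes, and every gene reached at least 0.503 CPM in its highest library.

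Changes were differences of log2(normalized count + 1) between libraries. A gene was called at a change of at least 1 in size and counted as switched at a change of at least 3 in the same direction from both libraries of the sh-CTL cells. With 1 library per group no test was run, and a count test on the recovered reads had no replicates. The 95% intervals of read ratios were exact Clopper-Pearson intervals, those of levels exact Poisson intervals, and both cover counting error only, as no molecular identifiers tell copies made by amplification from separate molecules. A floor of 3 reads was used. Scripts ran in Python 3.11.15 with numpy 2.4.6, pandas 2.3.3 and scipy 1.17.1, and were tested on simulated data.

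Positions, exons and transcripts came from GENCODE 44 mapped to GRCh37, in which 14858 gene identifiers were found. Promoters came from a RefSeq table (9 of 10 members had an entry) and were placed on GRCh37 by an exact search of chromosome 6. Neighbours were listed genes in order of their start. The members and the gene lists were chosen with earlier results of these data known. Named genes were the members, METTL3, every listed gene between GJA1 and PTPRK, 5 listed genes on each side, the called genes or the range of each family list, and the 3 genes nearest in pattern to GJA1 and to PTPRK. 2 genes that this rule selects are not reported here and were left out of the connexin list and of the nearest patterns. Other family members, the chromosome 6 genes outside the stretch and the marker genes were named after their values were seen. Alternatives were other scalings (total reads, upper quartile, recomputed median of ratios), pseudocounts of 0.5 and 4, mean normalized counts of at least 10 or 50, other thresholds and protein-coding neighbours alone.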

Additional observations from a re-analysis of the deposited data

How the results depend on the processing

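Of 157 values recomputed under the alternatives, 144 were kept within the margins set and 13 moved. The margin was the counting interval for a member's change, a fixed ratio for counts and 0.0974 for the median between the ends. A reversed sign was looked for only in member changes of at least 1 in size, and 0 were found. Values near 0 could change sign within the margin, as that median did (-0.006, and 0.014 with upper-quartile scaling). All 100 recomputed values of the members were kept. The change of GJA1 in sh-METTL3 ran from 7.30 to 8.04, that of TPD52L1 from -6.38 to -5.73 and that of PTPRK from -6.42 to -5.14, with the other members between -0.10 and 0.14. Under a threshold of 2 or 0.5 the members called in sh-METTL3 remained 3 and those in sh-CTL + PLK1i 0. Scaling moved the median of all genes by at most 0.021.

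The values that moved were counts over all genes. Genes called in sh-METTL3 came to 480 where a mean of 50 was required, 265 at a log2 change of 2 and 2685 at 0.5, against 952. In sh-CTL + PLK1i they came to 89 (58 higher, 31 lower), 52 (34 and 18) and 1638 (775 and 863), against 377. Switched genes came to 56 with a pseudocount of 4, 42 where a mean of 50 was required and 180 at a log2 change of 2, against 89. Called genes beside a called gene came to 101 of 468 where a mean of 50 was required (21.6%, beside 7.02% of all genes), 36 of 260 at a log2 change of 2 (13.8%, beside 3.41%), 1055 of 2650 at 0.5 (39.8%, beside 31.9%) and 149 of 684 among protein-coding genes (21.8%, beside 10.7%), against 240 of 932. In each of these the share among called genes was above that of all genes.

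No paired analysis was possible because each group had 1 library and the labels carry no replicate numbers. No library was left out, as each group would lose its 1 library. Depth limits the genes with few reads: at 4 and 5 reads, GJA1 in the libraries of the sh-CTL cells and any difference between them were near the floor, and the 2 reads of PTPRK in sh-METTL3 leave its fold uncertain between 29.7 and 906.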
